A study of Homo sapiens with 6 samples.

Results

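Long noncoding RNAs named in liver cancer were followed in luciferases-expressing HepG2 cells after exposure to sedanolide. The set holds 9 of the 61541 genes in the deposited count table, namely LUCAT1, H19, HULC, NEAT1, MALAT1, GAS5, SNHG1, SNHG12 and CYTOR, each matched by symbol and Ensembl identifier. LUCAT1 had been chosen for its fold change in these same libraries, so its difference between conditions is given as a description, with no test, and the other 8 were gathered around it with earlier results of these data known. All 9 passed the filter on low counts, which left 14102 genes.

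The study asked whether sedanolide, a phthalide of celery, acts on the antioxidant response that the factor NRF2 drives, and RNA-seq was used to look for other genes that changed. HepG2 is an established hepatoblastoma line, and the derivative used here also carries luciferase reporters in both conditions. The comparison was between 3 control libraries and 3 libraries from cells kept for 24 h with 100 μM sedanolide. Nothing in the labels says whether the 3 libraries of a condition came from separate cultures, so the p-values measure the spread between these libraries, which may be technical.

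Total expected counts per library were 16420258 to 22940963 in control cells and 19027265 to 26714853 in sedanolide-treated cells. The libraries also stood apart along a split that crossed the conditions unevenly. Component 1 of a principal component analysis, run on log2 CPM (the count of a gene as a share of the counts of its library, scaled to the same total in each), held 56.1% of the variance and separated control 1, control 2 and sedanolide 3, with 1.43% to 2.15% of counts from mitochondrial genes, from control 3, sedanolide 1 and sedanolide 2, with 4.23% to 5.22%. These 2 sets of 3 libraries are called the low and the high mitochondrial side, and values by side are given wherever a member moved with it. The low side holds 2 control libraries and 1 sedanolide library and the high side the reverse, so side and treatment are partly confounded. The side was defined from the same counts that are tested, so adjusted p-values with the side as a term are descriptive. Of 10 hepatocyte and HepG2 markers, all 10 were tested and none was called in either direction. Of these, 8 had negative log2 fold changes (median -0.22), and 2 were lower at an unadjusted p under 0.05 and without overlap, where 6.57% of all genes tested were lower at that p. Their summed level was 25437 to 39625 CPM in control and 18825 to 34289 CPM in sedanolide. Of 8 markers of immune, endothelial, fibroblast, stellate and basal cells, CD68 and PECAM1 were tested and not called. The other 6 had at most 5 counts in any library, with VWF at 0 in all, and the 8 together summed to 13.2 to 18.6 CPM in control and 18.2 to 20.1 CPM in sedanolide. The part of these marker levels in the results was not tested.

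Long noncoding RNAs are transcripts without a long reading frame that act as RNA, in the nucleus as scaffolds or in the cytoplasm on other RNAs and proteins. LUCAT1 was first described in airway and lung cancer cells and is known as a transcript induced by stress and NRF2. H19 is the imprinted partner of IGF2, HULC takes its name from its high level in liver cancer, NEAT1 builds paraspeckles and MALAT1 sits in nuclear speckles. GAS5, SNHG1 and SNHG12 are host transcripts, whose introns carry small nucleolar RNAs (snoRNAs) and whose spliced RNAs are removed by nonsense-mediated decay, and CYTOR is a mainly cytoplasmic RNA that is raised in many tumours.

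The promoters of LUCAT1, CYTOR and the copy of CYTOR are shown because these RNAs were the members, with that copy, whose levels were higher in every sedanolide library. RefSeq windows of 300 bases, from 250 before to 50 after the start of a gene (GRCh38.p14), were searched on both strands for the antioxidant response element core in the forms TGACNNNGC and TGAGNNNGC and for the AP-1 motif TGAGTCA, which can overlap either core. A window was given for 7 members, and 4 of these, LUCAT1, MALAT1, SNHG1 and CYTOR, held a core, beside 29.1% of all 35116 windows. TGACNNNGC alone was in 13.3% of windows, TGAGNNNGC in 18.3% and TGAGTCA in 4.95%. LUCAT1 and CYTOR were the 2 members with TGAGTCA, and in both it lay inside a core, an arrangement held by 0.977% of all windows. In the sequences the capitals mark these motifs.
LUCAT1, chr5:91314353-91314652, minus strand: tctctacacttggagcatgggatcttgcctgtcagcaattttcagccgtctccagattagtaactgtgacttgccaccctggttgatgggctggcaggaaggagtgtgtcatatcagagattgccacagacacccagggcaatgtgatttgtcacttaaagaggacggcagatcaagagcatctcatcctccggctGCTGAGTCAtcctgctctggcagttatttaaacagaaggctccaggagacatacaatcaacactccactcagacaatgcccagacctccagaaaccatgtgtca
CYTOR, chr2:87455327-87455476, plus strand: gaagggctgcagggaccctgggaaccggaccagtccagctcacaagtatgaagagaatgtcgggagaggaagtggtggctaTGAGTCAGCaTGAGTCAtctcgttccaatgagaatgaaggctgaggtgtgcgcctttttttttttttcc
MIR4435-2HG, chr2:111495112-111495261, minus strand: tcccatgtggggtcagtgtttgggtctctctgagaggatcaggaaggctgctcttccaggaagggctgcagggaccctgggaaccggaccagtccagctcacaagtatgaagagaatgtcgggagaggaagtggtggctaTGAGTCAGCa
MALAT1, chr11:65497678-65497727, plus strand: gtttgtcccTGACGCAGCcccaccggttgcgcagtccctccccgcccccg
In LUCAT1 the letters GCTGAGTCA lay at positions -54 to -46 from the start, where the core is read on the opposite strand. In CYTOR, TGAGTCAGC lay at -19 to -11 and a further TGAGTCA at -9 to -3. MALAT1 held TGACGCAGC at -51 to -43 and is shown as a member with a core whose level did not separate the conditions. A match of letters is a description of the window and says nothing on binding in these cells.

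LUCAT1 was the member with the highest fold change and was raised in each sedanolide library. The gene (ENSG00000248323) lies on chromosome 5 at 91054834 to 91314547, minus strand, in GENCODE 44, where 65 transcripts span 259.7 kb, while the RefSeq gene spans 91302986 to 91314402. The annotation release used for counting is not given in the sources used here, so the counts may include transcripts outside the RefSeq gene. Its expected counts were 13 to 19 in control and 112 to 171 in sedanolide. After TMM normalization these were 0.788, 0.805 and 0.961 CPM in controls 1 to 3 and 6.02, 6.60 and 5.95 CPM in sedanolide 1 to 3. The conditions were far apart and the libraries of each condition lay close together, with a coefficient of variation of 11.2% in control and 5.81% in sedanolide. The mean went from 0.851 ± 0.0954 to 6.19 ± 0.360 CPM (SD, n = 3), a fitted fold of 7.25 and a log2 fold change of 2.86 with a standard error of 0.180. The difference was present on both sides of the library split, with a log2 ratio of 2.75 among the low and 2.60 among the high mitochondrial libraries, and it was 2.80 to 2.95 when each library was left out in turn.

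**Figure D1:**
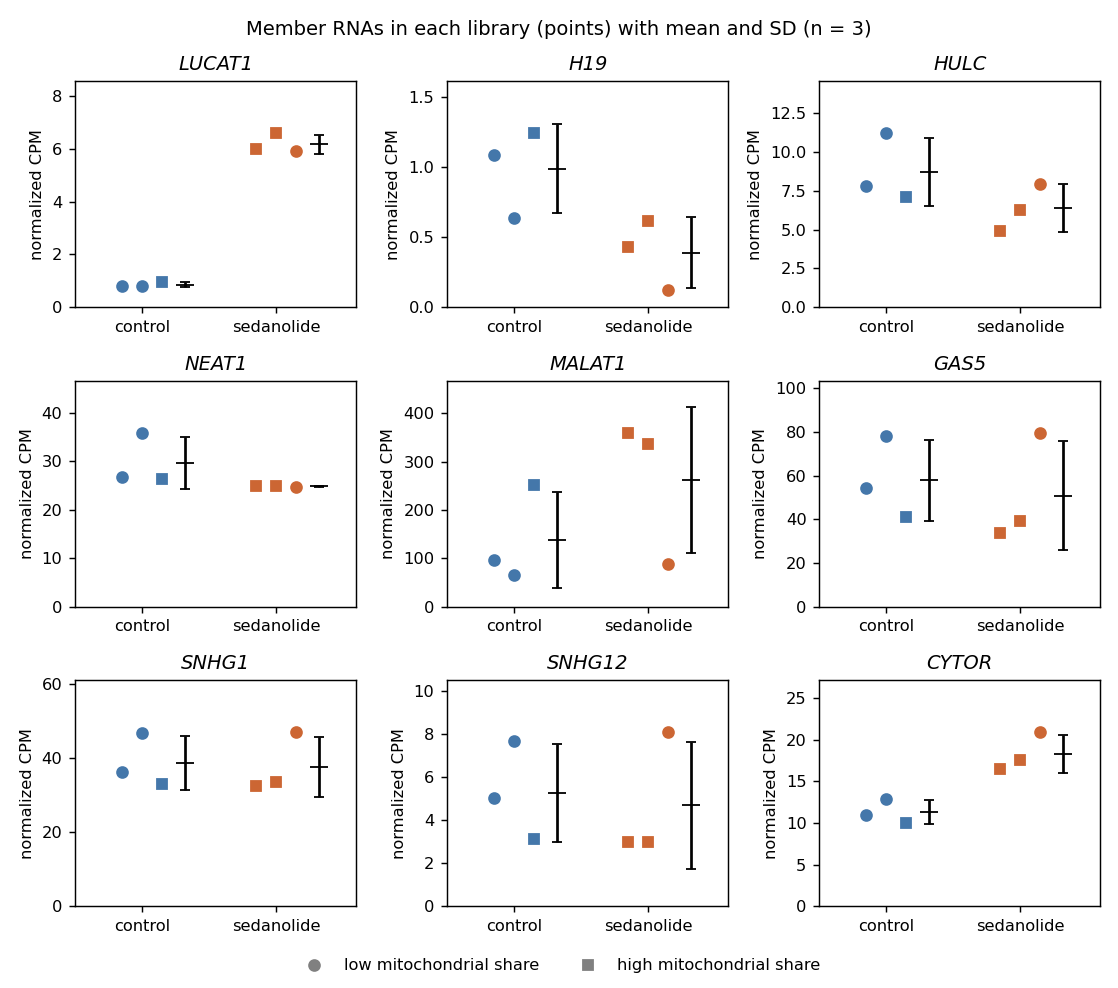
Normalized CPM (vertical axes, each starting at 0) of the 9 member RNAs in control and sedanolide libraries. Circles are libraries of the low and squares of the high mitochondrial side, and black bars give mean and SD (n = 3). LUCAT1 lies at 0.788 to 0.961 CPM in control and 5.95 to 6.60 CPM in sedanolide, CYTOR at 10.0 to 12.9 and 16.5 to 20.9 CPM, and the MALAT1 panel follows the shape of the points (66.1 to 96.7 CPM for circles and 251.7 to 360.0 CPM for squares).

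By log2 fold change LUCAT1 stood at rank 5 among the 14102 genes and at rank 1 among the 1435 long noncoding RNA genes tested, of 17658 in the table. Genes were called at a false discovery rate (FDR) of 0.05 and a fold change of 1.5 in the quasi-likelihood test of edgeR. By this rule 50 genes (0.355%) were called higher and 44 (0.312%) lower, and LUCAT1 was the only long noncoding RNA gene called higher. Of the other 8 members, 0 were called, with an unadjusted p under 0.05 for CYTOR (higher) and H19 (lower), and DESeq2 called 1 of them, CYTOR. Of all genes tested, 5.34% were higher and 6.57% lower at an unadjusted p under 0.05, DESeq2 called 0.915% higher and 1.4% lower, and edgeR with the library side as a term called 1.06% higher and 1.62% lower. Because LUCAT1 was chosen on this contrast, its own call is not evidence about the set. No gene of the table, LUCAT1 included, was called without control 1 or without sedanolide 2. The 3 long noncoding RNA genes called lower were LINC00654 (log2 fold change -1.21, adjusted p = 0.0440), CERNA2 (-1.35, adjusted p = 0.0300) and ENSG00000286970 (-1.56, adjusted p = 0.0371).

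The median log2 fold change was -0.17 over the 9 members, -0.12 over all long noncoding RNA genes tested and 0.0057 over all genes tested. Its sign over the members depended on single libraries, as it was 0.12 without control 2. The conditions did not overlap for 2 members higher in sedanolide, LUCAT1 and CYTOR, and for 2 members lower, H19 and NEAT1. Over all genes tested this was so for 8.69% in the higher and 9.65% in the lower direction. The other 5 members, HULC, MALAT1, GAS5, SNHG1 and SNHG12, had overlapping conditions, and in each of these 5 the libraries of the 2 mitochondrial sides did not overlap, with MALAT1 higher and the other 4 lower on the high side. The sides also did not overlap for much of the table, with 23.2% of all genes tested higher and 21.0% lower on the high side, so such a separation is common and not particular to these RNAs.

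**Figure D2:**
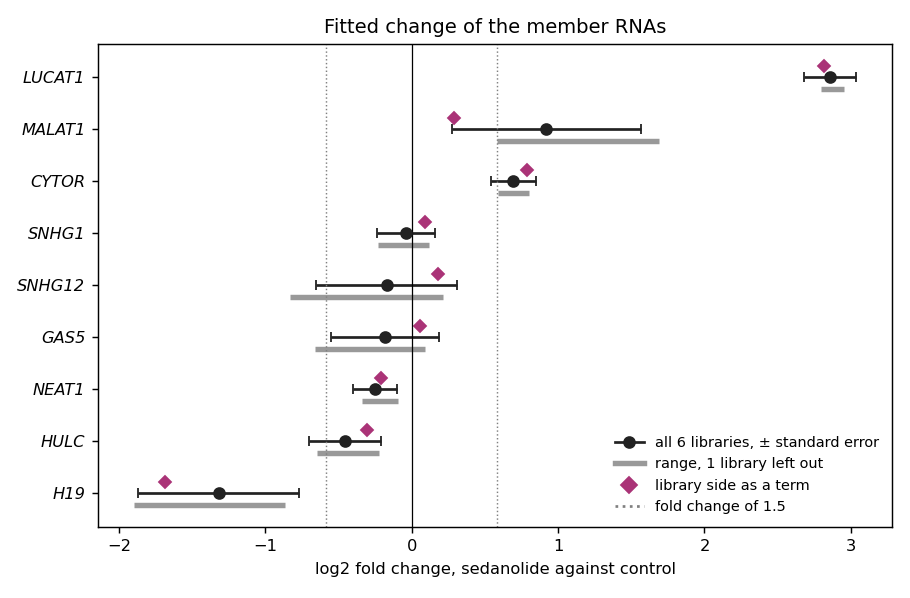
Log2 fold change of each member, sedanolide against control (horizontal axis), with its standard error (black), the range when each of the 6 libraries is left out in turn (grey bars) and the value with the library side as a term (diamonds); dotted lines mark a fold change of 1.5. LUCAT1 lies at 2.86 with a range of 2.80 to 2.95, CYTOR at 0.69, and MALAT1 moves from 0.92 to 0.29 with the side term.

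The genes around LUCAT1 were looked at in turn, as a long noncoding RNA gene can share a regulatory region with its neighbours. Within 1 Mb, 6 genes were tested and none was called. ARRDC3, an arrestin-related adaptor 54.1 kb away, had a log2 fold change of 0.37 (SE 0.494, adjusted p = 0.798). POLR3G, a subunit of RNA polymerase III, was at 6.17 ± 0.956 CPM in control and 11.0 ± 0.823 CPM in sedanolide without overlap, at a log2 fold change of 0.83 (adjusted p = 0.0867). ADGRV1, an adhesion receptor gene whose span overlaps that of LUCAT1 without shared exon bases, was at 1.46 ± 0.114 and 0.830 ± 0.148 CPM (-0.82, adjusted p = 0.256). LYSMD3, CETN3 and MBLAC2 had log2 fold changes of 0.0060, -0.064 and 0.13, with overlapping conditions. The neighbours thus gave values in both directions. Each was smaller in size than that of LUCAT1, which was itself chosen for its fold change.

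The 5 tested genes whose log2 CPM followed that of LUCAT1 most closely over the 6 libraries were ZBTB2 (Pearson r = 0.997), HKDC1 (r = 0.997), GCLM (r = 0.996), SAMD1 (r = 0.995) and SHQ1 (r = 0.995). These correlations describe 6 libraries that fall into the 2 conditions, and any gene that separates them cleanly scores high. Among them the size of the difference varied. GCLM, the modifier subunit of the enzyme that starts glutathione synthesis, went from 30.3 ± 3.25 to 110.9 ± 6.96 CPM (log2 fold change 1.87), and HKDC1, a hexokinase, from 16.4 ± 1.41 to 36.5 ± 0.770 CPM (1.15). ZBTB2, a zinc finger protein, went from 27.9 ± 0.172 to 40.8 ± 1.07 CPM (0.55). SAMD1 and SHQ1 had log2 fold changes of 0.29 and 0.27.

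CYTOR (ENSG00000222041, chromosome 2 at 87454781 to 87636740, plus strand) was the other member with a higher level in every sedanolide library. In RefSeq this gene spans 87455427 to 87521518, so its counts may also include transcripts outside the RefSeq gene. It was at 11.0, 12.9 and 10.0 CPM in controls 1 to 3 and at 16.5, 17.6 and 20.9 CPM in sedanolide 1 to 3. No control library reached the level of any sedanolide library. The log2 fold change was 0.69 (SE 0.156, fold 1.62), which did not pass the FDR threshold (adjusted p = 0.140, edgeR). DESeq2 gave an adjusted p of 0.0161, and edgeR with the library side as a term gave a log2 fold change of 0.79 and an adjusted p of 0.00726. The log2 ratio was 0.80 within the low and 0.76 within the high mitochondrial side.

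CYTOR has a partial copy on the other arm of the same chromosome, MIR4435-2HG (ENSG00000172965). Of the 31-base words in CYTOR transcripts 61.9% were also found in transcripts of MIR4435-2HG, and 31.9% of its words were found in CYTOR. How reads were divided between the genes was not tested, so the split of counts between them is uncertain. Their RefSeq promoter windows, set against each other at an offset of 59 bases, were equal at 241 of 241 aligned bases, and the motif at -19 to -11 of CYTOR is the one at 41 to 49 of the copy. Both loci also encode the same mature miRNA, shown because the sequence ties the copies together, with its seed (bases 2 to 8) in capitals.
hsa-miR-4435 (chr2:87629764-87629785, plus strand, and chr2:111321061-111321082, minus strand): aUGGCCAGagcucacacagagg
MIR4435-2HG was at 37.7, 34.5 and 46.0 CPM in controls 1 to 3 and at 65.5, 63.1 and 53.1 CPM in sedanolide 1 to 3, again without overlap (log2 fold change 0.62, SE 0.152, adjusted p = 0.174). NCAL1, a long noncoding RNA gene on the same strand that shares 436 exon bases with CYTOR, was at 13.0, 12.6 and 12.8 CPM in control and at 26.0, 25.5 and 18.4 CPM in sedanolide (0.86, SE 0.162, adjusted p = 0.0844). All 3 were thus higher in each sedanolide library than in any control. None passed the FDR threshold in edgeR with the condition as the only term. With the library side as a term the adjusted p was 0.0160 for both MIR4435-2HG (log2 fold change 0.52, below the fold threshold) and NCAL1 (0.75), and DESeq2 gave 0.0138 and 0.000524.

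H19 (ENSG00000130600, chromosome 11 at 1995166 to 2004552, minus strand), a fetal liver RNA that gives rise to a miRNA from its first exon, was the member with the fewest counts. Only 15 to 22 counts were assigned in control and 3 to 16 in sedanolide, so its values have wide counting error. They were 1.09, 0.635 and 1.24 CPM in controls 1 to 3 and 0.430, 0.618 and 0.119 CPM in sedanolide 1 to 3. Control 2 and sedanolide 2 nearly met, and the remaining libraries were further apart. The log2 fold change was -1.32 (SE 0.549, adjusted p = 0.407), and it was -1.90 to -0.86 when each library was left out.

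The neighbours of H19 also had lower means in sedanolide, and neither was called. IGF2, the fetal growth factor 124.6 kb away that is imprinted from the other parental copy, was at 491, 468 and 245 CPM in controls 1 to 3 and at 135, 153 and 286 CPM in sedanolide 1 to 3 (log2 fold change -1.07, adjusted p = 0.313). It overlapped between conditions and was lower on the high mitochondrial side, at 134.8 to 245.1 CPM against 286.5 to 491 CPM. With the side as a term its log2 fold change was -0.76 (adjusted p = 0.00257). MRPL23-AS1, a long noncoding RNA gene 5.17 kb away, was at 5.73 ± 0.604 CPM in control and 3.53 ± 0.0866 CPM in sedanolide without overlap (-0.70, adjusted p = 0.131).

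Of 18 imprinted genes other than H19, 14 were tested, 4 had positive and 10 negative values, and the median log2 fold change was -0.21. None was called by edgeR, with an unadjusted p under 0.05 for 1 gene in the higher and 4 in the lower direction, and DESeq2 called 3 lower, PEG10, SLC38A4 and ZIM2. Over all genes tested these shares were 5.34% and 6.57% by unadjusted p, and 1.4% by DESeq2. The largest values were those of PEG10, a retrotransposon-derived gene of growing liver and placenta, at -1.56 (SE 0.338, adjusted p = 0.132), and of SLC38A4, an amino acid transporter, at -1.22 (SE 0.314, adjusted p = 0.186). With the library side as a term 4 of the list, PEG10, IGF2, SLC38A4 and ZIM2, were called lower, beside 1.62% of all genes tested. The summed level of the list was 8496 to 13211 CPM in control and 4449 to 7840 CPM in sedanolide. PEG10 alone gave 86.8% of the difference between the mean sums, with means of 6747 and 2289 CPM, and without it the sums overlapped, at 3709.6 to 4638 CPM in control and 2942 to 4493 CPM in sedanolide. Of 8 proteins linked to H19 as an RNA or a gene, 7 had positive values and 0 were called (median 0.16). Among them 1 gene had an unadjusted p under 0.05. EZH2, the Polycomb methyltransferase, was at 0.35 and CTCF, the insulator protein, at 0.28.

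HULC (ENSG00000285219) has an identifier that in GENCODE 44 covers far more than the RefSeq gene of this name. The GENCODE 44 gene with this identifier has 127 transcripts between 8435568 and 9294133 on chromosome 6, plus strand, while RefSeq places HULC at 8652269 to 8653856. The annotation release used for counting is not given in the sources used here. The value may thus belong to the wide locus, and it cannot be assigned to the short RNA. It was 7.82, 11.2 and 7.12 CPM in controls 1 to 3 and 4.89, 6.26 and 7.97 CPM in sedanolide 1 to 3. Sedanolide 3 was above 2 controls, so the conditions overlapped, and the log2 fold change was -0.45 (SE 0.246, adjusted p = 0.523). A small RNA gene on the same strand that shares 240 exon bases with the locus held counts equal to 6.10% of those of HULC. It was the exception among the 22 small RNA genes that share exon bases with members, of which the other 21 had 0 counts in all libraries.

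NEAT1 (ENSG00000245532) and MALAT1 (ENSG00000251562) lie near each other on the plus strand of chromosome 11, with the pseudogene FAUP4 between them, at 65422774 to 65445540 and 65497640 to 65508073. NEAT1 was at 26.7, 35.9 and 26.3 CPM in controls 1 to 3 and at 24.9, 25.0 and 24.8 CPM in sedanolide 1 to 3. The sedanolide libraries were nearly equal and just below the lowest control, and control 2 was far above the others. The log2 fold change was -0.25 (SE 0.150, adjusted p = 0.561), and without control 2 it was nearer to 0, at -0.091. On the length-corrected scale described further on, the conditions of NEAT1 overlapped. The neighbour FRMD8, 9.25 kb before NEAT1, had a log2 fold change of -0.84 (SE 0.498, adjusted p = 0.561).

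MALAT1 gave the second largest positive fold change of the set, and this value followed the library side. It was at 96.7, 66.1 and 251.7 CPM in controls 1 to 3 and at 360.0, 336.9 and 87.5 CPM in sedanolide 1 to 3. Control 3, sedanolide 1 and sedanolide 2, which are the high mitochondrial libraries, were the 3 highest, and their mean was 3.79 times that of the low side. The log2 fold change between conditions was 0.92 (SE 0.643, adjusted p = 0.624), and it was 0.29 (adjusted p = 0.346) with the side as a term. Within the low side the log2 ratio of sedanolide to control was 0.10, and within the high side 0.47.

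**Figure D3:**
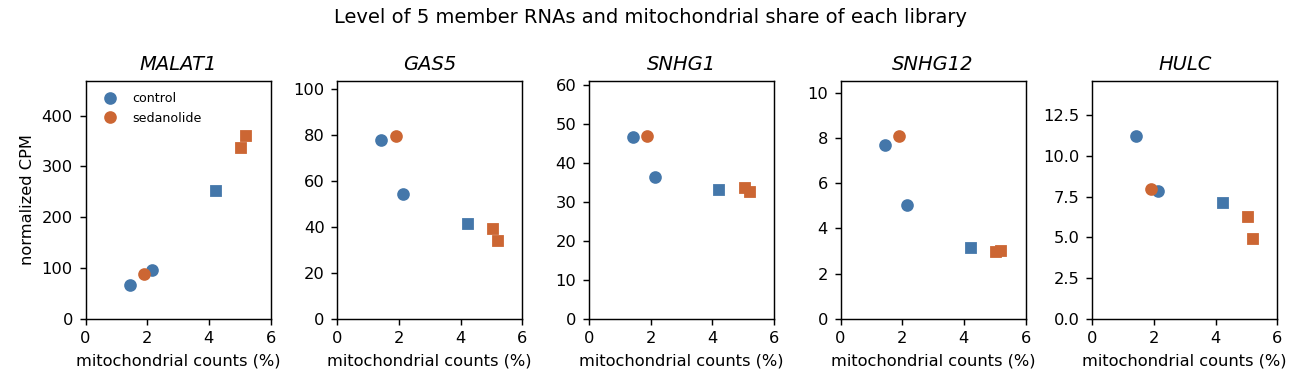
Normalized CPM (vertical axes, each starting at 0) of MALAT1, the 3 snoRNA hosts and HULC against the percentage of counts from mitochondrial genes (horizontal axes) in each of the 6 libraries, coloured by condition, with circles for the low and squares for the high mitochondrial side. Control 3 and sedanolide 1 and 2, at 4.23% to 5.22% mitochondrial counts, hold the 3 highest values of MALAT1 and the 3 lowest of the other 4 RNAs.

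The proteins that work with these nuclear RNAs gave small values. All 11 paraspeckle proteins of the list were tested and 0 were called (1 with an unadjusted p under 0.05), with a median of 0.019, and PSPC1, a paraspeckle core protein, was at 0.21 (adjusted p = 0.643). All 14 nuclear speckle and splicing factors were tested and 0 were called (1 with an unadjusted p under 0.05), with a median of 0.12. At that p 5.34% of all genes tested were higher and 6.57% lower. U2AF1, which reads the 3' splice site, was at 1.06 (adjusted p = 0.343) and has a near-identical copy in the genome build, so its count is uncertain, and SRSF7, a splicing factor, was at 0.29.

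GAS5, SNHG1 and SNHG12 moved together across libraries, and the conditions overlapped for each. GAS5 (ENSG00000234741, chromosome 1 at 173858559 to 173868882, minus strand) was at 54.5, 77.9 and 41.0 CPM in controls 1 to 3 and at 33.8, 39.2 and 79.5 CPM in sedanolide 1 to 3. SNHG1 (ENSG00000255717, chromosome 11 at 62851978 to 62855953, minus strand) was at 36.2, 46.7 and 33.0 CPM and at 32.4, 33.5 and 46.9 CPM. SNHG12 (ENSG00000197989, chromosome 1 at 28578538 to 28583132, minus strand) was at 5.03, 7.67 and 3.11 CPM and at 3.01, 2.97 and 8.09 CPM.

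In all 3 hosts sedanolide 3 was the highest library, control 2 was next, and the 3 libraries of the high mitochondrial side were the lowest. The mean of the low side was 1.86 times that of the high side for GAS5, 1.31 times for SNHG1 and 2.29 times for SNHG12, and 1.48 times for HULC. The log2 fold changes between conditions were -0.18 (SE 0.369, adjusted p = 0.873), -0.040 (SE 0.198, adjusted p = 0.951) and -0.17 (SE 0.481, adjusted p = 0.915). With the side as a term these became 0.056, 0.089 and 0.18, so no direction can be given for any of the 3. Over the 6 libraries the log2 CPM of the hosts had Pearson r of 0.974 to 0.986 among each other and of -0.951 to -0.881 with MALAT1. These are descriptions of libraries that share the side split, and the part of the mitochondrial share in them was not tested.

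Of 29 snoRNA host transcripts listed, the 3 members included, 25 were tested and 0 were called in either direction, also at an unadjusted p under 0.05. Their log2 fold changes had a median of -0.12, with 7 positive and 18 negative. On the high mitochondrial side 13 were lower without overlap and 3 were higher, beside 21.0% and 23.2% of all genes tested. SNHG22 was at 1.09 (SE 0.714, adjusted p = 0.598) and SNHG26 at -0.40 (adjusted p = 0.624). The 12 snoRNA genes that the annotation places within SNHG1 and SNHG12 had 0 counts in all libraries, in RNA selected for its poly(A) tail. All 14 nonsense-mediated decay factors were tested and 0 were called (1 with an unadjusted p under 0.05), with a median of 0.051. At that p 5.34% of all genes tested were higher and 6.57% lower. MAGOH, of the exon junction complex, was at 0.50 and UPF1, the central helicase of this pathway, at -0.43.

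Overlapping genes limit the host values. GAS5 shares 132 exon bases with GAS5-AS1 on the opposite strand, and SNHG12 shares 8 with TRNAU1AP. The kit keeps strand, but the strand setting of the counting is not given in the sources used here, so reads in these bases cannot be told apart. Of the genes beside the hosts, SLC3A2, a transporter chain whose gene begins 51 bases from SNHG1, was at 120.6 ± 23.9 and 220.7 ± 51.5 CPM without overlap (log2 fold change 0.87, adjusted p = 0.181), while SNHG1 itself was at -0.040. The neighbours WDR74 of SNHG1, RCC1 and TAF12 of SNHG12, and CENPL, SERPINC1 and ZBTB37 of GAS5 had log2 fold changes of 0.36, 0.48, 0.026, 0.20, 0.30 and 0.074, and none was called.

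Levels of different RNAs were compared only per transcript length, in TPM (the share of a gene among all transcripts, corrected for length), recovered from the second deposited table, which holds 8 of the 9 members and has no row for H19. In control GAS5 was at 160.7 ± 59.2 TPM, MALAT1 at 94.6 ± 68.4, SNHG1 at 53.9 ± 15.2 and CYTOR at 34.1 ± 8.88 TPM. HULC was at 15.9 ± 4.99 TPM, NEAT1 at 12.5 ± 6.07, SNHG12 at 9.50 ± 5.29 TPM and LUCAT1 at 1.87, 1.24 and 1.40 TPM in controls 1 to 3. Neighbours in this order overlapped between libraries except at 2 steps, from CYTOR to HULC and from SNHG12 to LUCAT1.

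In sedanolide LUCAT1 was at 7.40, 8.57 and 8.52 TPM, a mean of 8.16 ± 0.662 and 5.43 times the control mean. It thereby came to lie within the range of SNHG12, at 4.22 to 13.9 TPM, and that of NEAT1, at 5.03 to 9.88 TPM, from below every other member in control. Its range in sedanolide also overlapped that of HULC, at 7.61 to 14.6 TPM. CYTOR was at 26.5 to 43.8 TPM in control and 41.7 to 63.5 TPM in sedanolide, so on this scale its conditions overlapped. Among the sedanolide means MALAT1, at 154.5 ± 85.7 TPM, stood above GAS5, at 132.5 ± 75.4 TPM, and CYTOR, at 49.3 ± 12.4 TPM, above SNHG1, at 46.7 ± 14.9 TPM, in both cases with overlapping ranges.

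**Figure D4:**
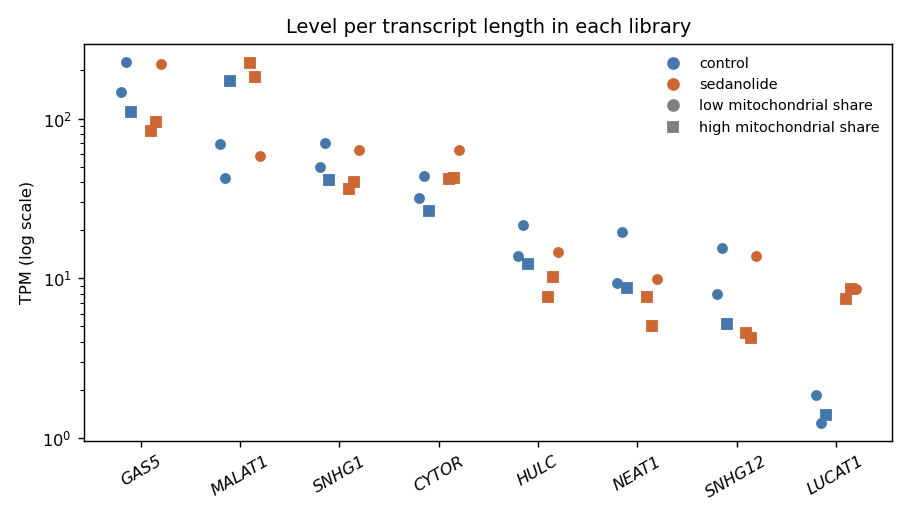
TPM of the 8 members of the second table in each library, on a log axis, in the order of their control means, with circles for the low and squares for the high mitochondrial side. LUCAT1 lies at 1.24 to 1.87 TPM in control, below every other member, and at 7.40 to 8.57 TPM in sedanolide, among NEAT1 and SNHG12 and overlapping HULC.

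Of 44 other long noncoding RNAs named in liver cancer, 42 were in the table and 25 were tested, and 0 were called by edgeR, with an unadjusted p under 0.05 for 4 in the higher and 1 in the lower direction, beside 5.34% and 6.57% of all genes tested. DESeq2 called 1 higher, MIR4435-2HG, which is on this list, and in the paraspeckle, speckle, snoRNA host, H19-linked and decay lists it called 0. Of all genes tested it called 0.915% higher and 1.4% lower. The median log2 fold change was -0.10, with 12 positive and 13 negative. NMRAL2P, a pseudogene transcript known as an NRF2 target, was at 1.10 ± 0.319 CPM in control and 2.11 CPM in sedanolide, with a log2 fold change of 0.94 (SE 0.350, adjusted p = 0.357). With the library side as a term it was called higher (1.20, adjusted p = 0.0272), as were 1.06% of all genes tested. CASC9 was at 0.69 (SE 0.206, adjusted p = 0.252). No RNA of this list had a log2 fold change as large as that of LUCAT1. LUCAT1 was chosen for its fold change, so this comparison is no result about the list.

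**Figure D5:**
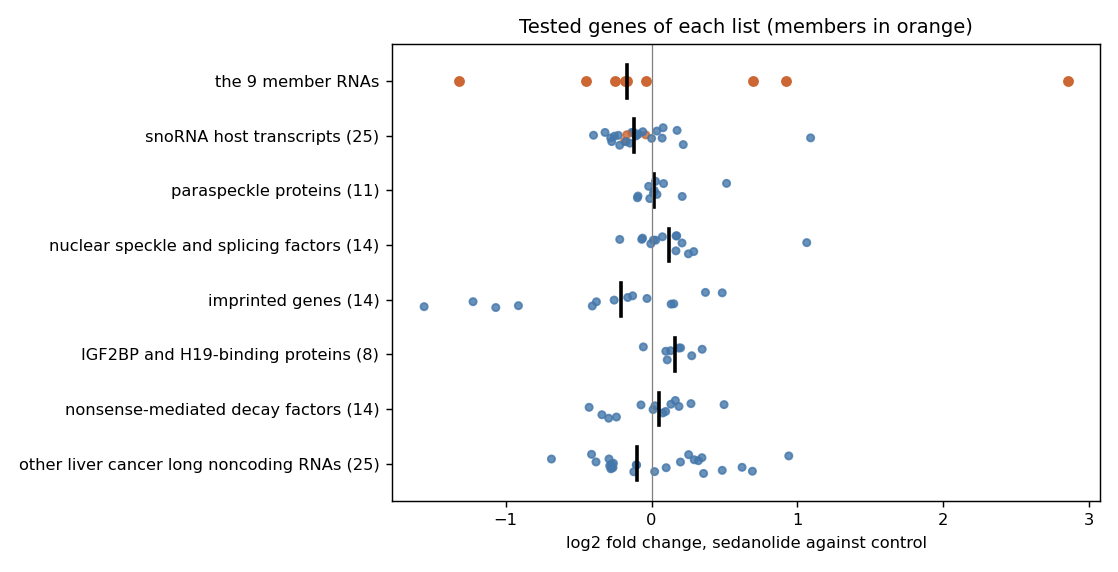
Log2 fold change, sedanolide against control (horizontal axis), of each tested gene of 7 lists and of the 9 members (orange), with the median of each as a black line and the number of tested genes in parentheses. LUCAT1, which was chosen for its fold change, lies at 2.86, outside the range of every list. The medians of the lists lie between -0.21 and 0.16.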

How the data were processed

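RNA-seq of 3 control and 3 sedanolide-treated libraries was used. The authors captured mRNA and sequenced directional libraries. Per the labels, reads were handled with FastQC, Trimmomatic, STAR, RSEM and GRCh38, and versions and the annotation release are not given in the sources used here. The first deposited table holds RSEM expected counts, not normalized, and the second holds log2(TPM + 1) for 11006 rows. The added 1 was read from the values.

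Expected counts were rounded and fitted with edgeR 4.0.16 in R 4.3.3 (filterByExpr, TMM, robust quasi-likelihood, condition as the only term). P-values were Benjamini-Hochberg adjusted over the 14102 genes and the 2 luciferase rows together. The 2 luciferase rows were left out of the counts of genes. The standard error given for a log2 fold change is its absolute value divided by the square root of the F statistic of the quasi-likelihood test. The biological coefficient of variation was 0.200. Log2 ratios within a side used CPM + 0.1 and have no test. Of the gene identifiers, 61369 were found in GENCODE 44, and coordinates are from it. Promoter and miRNA sequences are from RefSeq (GRCh38.p14).

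The members, lists, motifs and the side term were chosen with earlier results of these data known. Named were the 9 members, the 2 genes of each list with the largest absolute log2 fold change, the 5 genes most like LUCAT1, overlapping genes, the nearest tested neighbours (within 1 Mb for LUCAT1), MIR4435-2HG and hosted snoRNA genes. ZIM2 and the long noncoding RNA genes called lower were named after their values were seen. Some genes that fall under this rule are not reported here but were fitted and counted with the rest. Alternatives were DESeq2 1.42.0, limma-voom and limma 3.58.1 on the log2 TPM table (pseudocount 1 or 0.1), other size factors, a filter of 0.5 CPM or none, an FDR of 0.1, no fold threshold, the replicate number or the library side as a term, and each library left out. The scripts were tested on simulated data. Libraries of a condition differed by more than sampling noise (chi-square per gene 20.9 to 149.2).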

Additional observations from a re-analysis of the deposited data

How the results depend on the processing

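LUCAT1 was positive under all 16 alternatives and past both thresholds in 13. Because LUCAT1 was chosen for its fold change in these libraries, these counts describe the processing and are not support for the difference. Its log2 fold change was 2.86, and 2.80 to 2.95 with each library left out. On the log2 TPM scale it was 1.88 with a pseudocount of 1 and 2.38 with 0.1. A pseudocount shrinks low genes. The TPM means without one also gave a lower fold than the fit, 5.43 against 7.25. Members past both thresholds were 1 in the reported fit, 2 with DESeq2 and with the side term (LUCAT1 and CYTOR), 0 with the replicate block and 0 to 1 with a library left out, with 0 without control 1 and without sedanolide 2. Without LUCAT1 the count was 0, and 1 with DESeq2 and with the side term. List genes past both were 0, 4 with DESeq2, 5 with the side term and 0 to 2 with a library left out, with 2 without sedanolide 3. Of all genes 94 were past both, 326 with DESeq2, 157 with no filter, 61 in the log2 TPM table, 379 with the side term, 185 at an FDR of 0.1 and 0 to 135 with a library left out. By library these were 0 without control 1, 7 without control 2, 28 without control 3, 12 without sedanolide 1, 0 without sedanolide 2 and 135 without sedanolide 3 (1065 and 887 at an unadjusted p under 0.05 in edgeR for the 2 counts of 0).

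The median of the members was -0.33 to 0.12 with a library left out, and positive without control 2 (0.12), sedanolide 1 (0.052) or sedanolide 2 (0.027) and with the side term (0.089). CYTOR was positive under all 16 alternatives and past both thresholds in 2, with an adjusted p of 0.00726 to 0.788. GAS5, SNHG1 and SNHG12 changed sign with the side term (0.056, 0.089 and 0.18) and with a library left out (ranges -0.66 to 0.092, -0.23 to 0.12 and -0.83 to 0.22); the cause was not tested.

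Replicate numbers did not pair the libraries, as same-numbered deviations correlated at -0.133, -0.295 and -0.730, and no library correlated best with its own number. With the replicate block LUCAT1 had a log2 fold change of 2.86, and edgeR called 0 genes (770 at an unadjusted p under 0.05). Depth limits H19, at 3 to 22 counts, and LUCAT1 in control, at 13 to 19.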
